A study of Mus musculus with 9 samples.

Results

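The expression of 6 immunity-related GTPase genes, 2 Serpina3 genes and Olfr56 was followed in splenic T cells kept in 3 media. These 9 genes are the ones present of 10 symbols chosen for the family, out of 2889 genes in the deposited sample table. The expression of the tenth symbol, Ifi47, is not analysed here. The symbols were selected on results of these same samples, their differences from unconditioned medium, and the table itself holds genes that the authors called in one or both of those comparisons. The differences of the 9 genes are therefore given as values with standard errors (SE) and without p-values. CD3+ T cells were taken by negative selection from the spleens of wild-type C57BL/6 mice and kept for 4 h in adipocyte conditioned medium, in stromal cell conditioned medium or in unconditioned medium. Each medium was used on cells of the same 3 mice, which gave 3 samples per group and 9 RNA-seq libraries in all. The labels give neither the ages and sexes of the mice nor the origin of the cells that conditioned the media. Values are the authors' normalized read counts, that is, read counts divided by a factor per library.

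Immunity-related GTPases are among the most abundant products of interferon-treated mouse cells, and they act on the vacuoles in which intracellular bacteria and parasites live. The regulator GTPases Irgm1, Irgm2 and Igtp (also called Irgm3) sit on the membranes of the host cell and keep the effector GTPases inactive there. The effectors, which include the products of Iigp1 (Irga6) and of Tgtp1 and Tgtp2 (Irgb6), load onto vacuole membranes that lack the regulators. Interferon gamma, a cytokine that activated T cells themselves release, acts on its target genes through GAS elements and, by way of interferon regulatory factors, through ISRE elements. Serpina3g (Spi2A) is an intracellular serpin that inhibits cathepsins and has been linked to the survival of memory CD8 T cells, and Serpina3f is its close relative in the same gene cluster.

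All but Iigp1 lie in clusters on chromosomes 11 and 12 (GRCm38 coordinates, GENCODE M21 annotation). Irgm1 (chr11:48861968-48871683), Tgtp1 (chr11:48985327-48994172) and Tgtp2 (chr11:49057194-49064206) lie on the minus strand of one stretch of chromosome 11. Olfr56 (chr11:48978889-49135387, plus strand) spans the loci of Tgtp1, Tgtp2 and Ifi47, and shares 111 bp of exon with Ifi47. Olfr56 carries the name of an odorant receptor, and reads in the shared stretch cannot be assigned to a single gene. Igtp (chr11:58199556-58207591) and Irgm2 (chr11:58199618-58222782) lie further along chromosome 11 on the plus strand and share 162 bp of exon. Serpina3f (chr12:104214544-104221129) and Serpina3g (chr12:104236245-104241939) are neighbours on the plus strand of chromosome 12.

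The promoters of 5 of the 6 chromosome 11 GTPase genes of the chosen symbols, all but Ifi47, held a core of an element that the interferon pathway is known to use. They are shown because the same short block returns in 4 of the 5 genes that rose together. The 5 windows of 50 bases below are from RefSeq (GRCm38.p6), and each is written 5′ to 3′ on the strand of its gene. Capitals mark the ISRE core GAAANNGAAA and the GAS core TTCNNNGAA, which were searched on both strands of the 250 bases before to the 50 bases after each RefSeq start.
Igtp window, chr11:58199492-58199541, plus strand: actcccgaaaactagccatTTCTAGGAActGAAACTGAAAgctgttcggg
Irgm1 window, chr11:48871425-48871474, minus strand: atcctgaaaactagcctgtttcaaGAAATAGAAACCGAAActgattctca
Irgm2 window, chr11:58214883-58214932, plus strand: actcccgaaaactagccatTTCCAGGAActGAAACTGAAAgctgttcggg
Tgtp1 window, chr11:48992304-48992353, minus strand: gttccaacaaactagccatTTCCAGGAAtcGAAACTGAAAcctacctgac
Tgtp2 window, chr11:49064263-49064312, minus strand: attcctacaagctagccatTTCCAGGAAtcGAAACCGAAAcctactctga

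Each window was cut around an ISRE core, so all 5 hold one by construction. Of 32851 mouse promoters searched over the same 250 bases before to 50 bases after the start, 3.44% hold an ISRE core. In Igtp, Irgm2, Tgtp1 and Tgtp2 a GAS core ended just before the ISRE core, and both cores together occur in 0.45% of the promoters. Irgm1 had no GAS core in its window but 2 ISRE cores that overlap, the first at bases -30 to -21 and the second at bases -24 to -15 from the start. The Igtp and Irgm2 windows were identical at 49 of 50 positions. The Tgtp1 and Tgtp2 windows were identical at 82.0% of positions, and the Irgm1 window matched the other 4 at 52.0% to 64.0%. The RefSeq promoters of Olfr56 and Ifi47 held neither core, and the promoter of Iigp1 was not analysed here. The RefSeq window of Olfr56 (chr11:49133923-49134222) lies near the far end of the GENCODE gene, which starts at 48978889. The sequence at that GENCODE start was not examined. The RefSeq window of Irgm2 (chr11:58214727-58215026) also lies inside its GENCODE gene, which starts at 58199618, beside the start of Igtp (58199556).

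The promoters of the 2 serpin genes are shown whole because their shared stretch holds a GAS core but no ISRE core. Capitals mark the GAS core in both and, in Serpina3g, a match to the kappaB motif, the element bound by NF-kB.
Serpina3f promoter, chr12:104214294-104214593, plus strand: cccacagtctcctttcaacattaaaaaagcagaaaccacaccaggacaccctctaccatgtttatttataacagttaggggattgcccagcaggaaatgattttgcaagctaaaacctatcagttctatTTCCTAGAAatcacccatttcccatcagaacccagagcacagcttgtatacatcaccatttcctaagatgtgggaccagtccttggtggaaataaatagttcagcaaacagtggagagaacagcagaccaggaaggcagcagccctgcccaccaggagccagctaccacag
Serpina3g promoter, chr12:104235897-104236196, plus strand: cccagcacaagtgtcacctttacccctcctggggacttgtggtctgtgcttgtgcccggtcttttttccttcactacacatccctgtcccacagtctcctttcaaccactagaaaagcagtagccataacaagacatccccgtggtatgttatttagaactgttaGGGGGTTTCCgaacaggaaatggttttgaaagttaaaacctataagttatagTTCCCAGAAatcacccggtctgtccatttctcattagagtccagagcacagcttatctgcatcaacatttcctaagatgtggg

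The GAS core, which 8.3% of promoters hold, lay at bases -121 to -113 from the first of 2 RefSeq starts in Serpina3f (-210 to -202 from the second) and at bases -33 to -25 in Serpina3g. The kappaB motif, present in 8.46% of promoters, was found at bases -85 to -76 of Serpina3g and not in the Serpina3f window. Aligned with each other, the 2 promoters were identical at 79.0% of 214 positions. A match describes the letters only and is no measurement of binding.

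**Figure D1:**
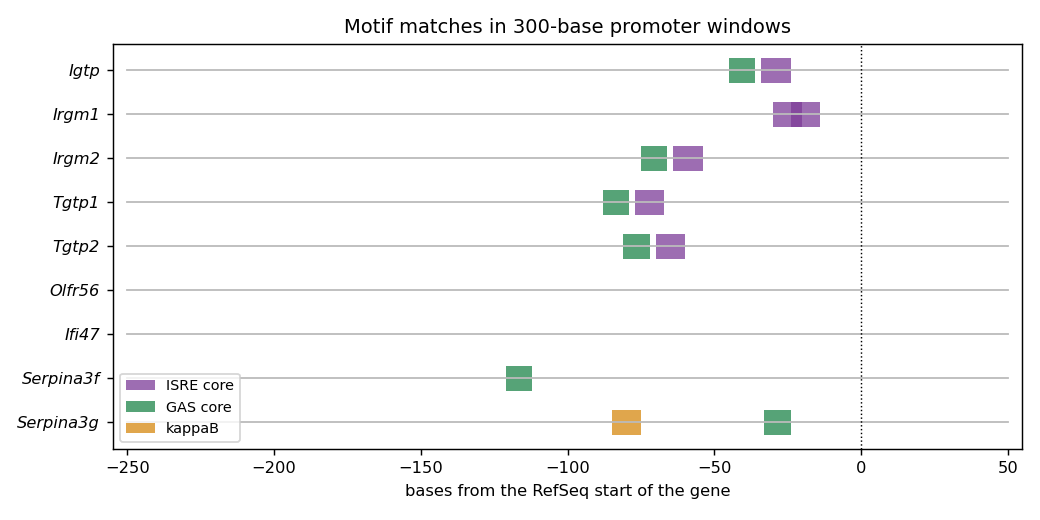
Motif matches in the promoter windows of the chromosome 11 GTPase genes, Ifi47 among them, of Olfr56 and of the serpin genes. The horizontal axis is the distance in bases from the RefSeq start of the gene, the dotted line marks the start, and coloured blocks mark ISRE core, GAS core and kappaB matches. The GAS and ISRE cores sit side by side in Igtp, Irgm2, Tgtp1 and Tgtp2, between bases -88 and -25.

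The T cell label and the depth were checked before the values were read. The listed genes held 6522742 to 13758643 reads per library, which is not the full depth because the table is a selection. The T cell markers Cd3e, Cd3g, Cd8a and Cd8b1, 4 of 15 on the list, had reads in all 9 libraries, and the other 11 are not analysed here. Their summed normalized counts ranged between 32578 and 35237 in adipocyte medium, between 72070 and 73297 in stromal medium and between 86513 and 97969 in unconditioned medium. B cell markers (6 of 12 listed) summed to 486 to 545, 1488 to 2665 and 2004 to 2665 in adipocyte, stromal and unconditioned medium. The sums of macrophage and monocyte markers (5 of 18) were 475 to 821, 3271 to 8211 and 3234 to 6712 in adipocyte, stromal and unconditioned medium. The 1 listed natural killer cell marker of 7, Klre1, had 510 to 668, 329 to 339 and 229 to 331. None of these markers was at 0 in any library. T cell marker sums thus differed between all 3 media. B cell and macrophage sums were lower and Klre1 was higher in adipocyte medium, while their stromal and unconditioned ranges overlapped. Among macrophage markers, Cd14 rose (1.99) and Adgre1 (-1.53) and Fcgr3 (-1.03) fell in stromal against unconditioned medium on the log2 scale. The part of the markers in the differences of the GTPase genes, the serpin genes and Olfr56 was not tested. Fewer cells of a type cannot be told apart from less RNA per cell.

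The whole set was higher in both conditioned media. All 9 genes were higher in every adipocyte medium sample than in any unconditioned sample, and likewise in every stromal medium sample. Of the listed normalized counts, the genes together took between 1.11% and 2.28% in adipocyte medium, between 3.10% and 4.40% in stromal medium and between 0.575% and 0.669% in unconditioned medium. Of all 2868 genes tested, 33.6% were higher in every adipocyte sample than in any unconditioned sample, and 25.1% in every stromal sample. All 9 also passed the limma threshold (Benjamini-Hochberg adjusted p under 0.05) in both comparisons, as did 97.2% of all genes in adipocyte medium and 57.7% in stromal medium. Nothing is read from these counts, since the table was made from these comparisons. The 2 comparisons share the unconditioned samples.

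**Figure D2:**
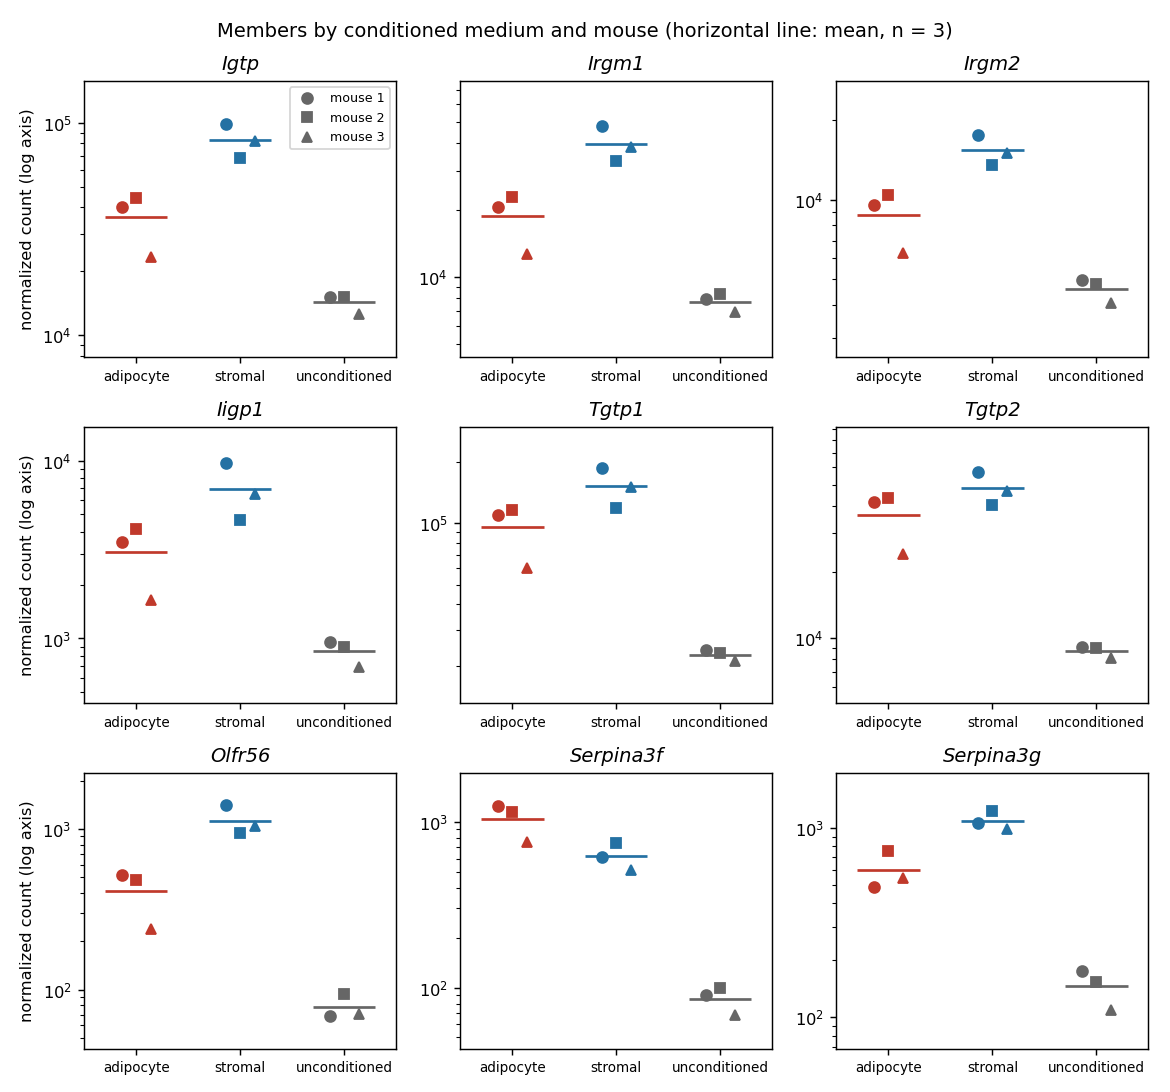
Normalized counts of the 9 genes in each of the 9 samples, on a log axis. Columns are adipocyte, stromal and unconditioned medium, the symbols are mice 1, 2 and 3, and the horizontal line is the mean (n = 3). The unconditioned samples lie below all others in every panel, and Serpina3f is highest in adipocyte medium.

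Among the regulators, Igtp was the most abundant. Igtp had 40226, 44318 and 23318 normalized counts in adipocyte medium (mice 1, 2 and 3), 98287, 68495 and 82539 in stromal medium, and 15152, 15067 and 12609 in unconditioned medium. The 3 groups did not overlap, and the stromal samples were the highest. On the log2(value + 1) scale, the difference was 1.28 (SE 0.21) for adipocyte minus unconditioned and 2.53 (SE 0.21) for stromal minus unconditioned medium. These are 2.44-fold and 5.78-fold changes.

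Irgm1, a regulator whose loss in mice impairs lymphocyte expansion, had 20566, 22953 and 12701 normalized counts in adipocyte medium, 47845, 33352 and 38728 in stromal medium, and 7947, 8327 and 6937 in unconditioned medium. Its groups were ordered like those of Igtp, without overlap. The log2 differences from unconditioned medium were 1.24 in adipocyte and 2.36 in stromal medium (SE 0.19 each).

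Irgm2, the regulator whose separate promoter window matched that of Igtp at 49 of 50 positions, moved least of the 9 from unconditioned medium. It had 9554, 10422 and 6299 normalized counts in adipocyte medium, 17489, 13469 and 14989 in stromal medium, and 4986, 4794 and 4069 in unconditioned medium. The differences were 0.90 and 1.73 for adipocyte and stromal medium (SE 0.17 each), or 1.86-fold and 3.31-fold. In the authors' deposited table, Irgm2 was also nearest to their threshold in adipocyte medium. All 9 lay inside the threshold, and Ifi47 was not placed against it. Nothing is read from this, since all 2889 genes with sample values had been called by the authors in one or both comparisons.

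The effector gene Iigp1 lies on chromosome 18, and its product Irga6 loads early onto the Toxoplasma vacuole. Iigp1 had 3493, 4113 and 1649 normalized counts in adipocyte medium. It had 9710, 4667 and 6534 in stromal medium and 957, 897 and 693 in unconditioned medium. The groups did not overlap, but Iigp1 had the widest spread between mice within both conditioned media, with a highest value 2.49 times the lowest in adipocyte and 2.08 times in stromal medium. The log2 differences from unconditioned medium were 1.77 in adipocyte and 2.98 in stromal medium (SE 0.31 each).

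Tgtp1 gave the largest counts of the set. It had 109663, 116322 and 59956 normalized counts in adipocyte medium, 185331, 118347 and 151026 in stromal medium, and 23894, 23115 and 21003 in unconditioned medium. Tgtp2, its neighbour and near copy, had 41615, 43483 and 24261 in adipocyte medium, 57406, 40240 and 46973 in stromal medium, and 9058, 9001 and 8090 in unconditioned medium. Both stood clear of unconditioned medium in every sample, with log2 differences of 2.01 and 2.72 for Tgtp1 (adipocyte and stromal medium, SE 0.22) and 2.02 and 2.45 for Tgtp2 (SE 0.19). The adipocyte and stromal samples of Tgtp1 were separated only narrowly, 116322 against 118347 at the nearest, and those of Tgtp2 overlapped.

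The split of reads between the Tgtp copies is uncertain. Of all stretches of 50 bases in the annotated transcripts, 81.2% of those of Tgtp1 and 86.6% of those of Tgtp2 also occur in another gene, 2480 of them shared between the pair. The ratio of Tgtp1 to Tgtp2 was 2.47 to 2.68 with adipocyte medium, 2.94 to 3.23 with stromal medium and 2.57 to 2.64 with unconditioned medium. The shares of such stretches were 11.8% for Igtp, 7.8% for Irgm2, 10.6% for Serpina3f and 15.5% for Serpina3g, and at most 1.8% for Iigp1, Irgm1 and Olfr56.

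Olfr56 had the largest fold change of the 9 in stromal medium, on few reads in unconditioned medium. It had 518, 480 and 237 normalized counts in adipocyte medium (360, 533 and 243 reads), 1402, 941 and 1044 in stromal medium (1680, 1427 and 872 reads), and 69, 94 and 71 in unconditioned medium (48, 108 and 80 reads). The groups did not overlap. The log2 differences were 2.32 and 3.84 for adipocyte and stromal medium (SE 0.27 each), or 5.00-fold and 14.3-fold. In stromal medium it had rank 6 among the 2868 genes by size of rise, where the other 8 ranked between 20 and 90. In adipocyte medium it had rank 151, where the other 8 ranked between 48 and 829. Nothing is read from the ranks, since the genes were chosen on these same differences.

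The 2 serpin genes parted between the conditioned media. Serpina3f had 1238, 1140 and 751 normalized counts in adipocyte medium, 609, 741 and 510 in stromal medium, and 90, 99 and 68 in unconditioned medium. Serpina3g, the cathepsin inhibitor, had 489, 757 and 542 in adipocyte medium, 1057, 1225 and 991 in stromal medium, and 176, 154 and 109 in unconditioned medium. Every adipocyte sample exceeded every stromal sample for Serpina3f, by 751 against 741 at the nearest, and every stromal sample exceeded every adipocyte sample for Serpina3g.

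Serpina3f rose by 3.57 in adipocyte and 2.84 in stromal medium on the log2 scale (SE 0.21 each), or 11.9-fold and 7.16-fold. Serpina3g rose by 2.02 and 2.91 (SE 0.20 each), or 4.06-fold and 7.53-fold. The ratio of Serpina3f to Serpina3g was 1.39 to 2.53 with adipocyte medium, 0.514 to 0.605 with stromal medium and 0.512 to 0.644 with unconditioned medium. The stromal and unconditioned ratios overlapped, and the adipocyte ratios stood above both.

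Set against each other, adipocyte medium gave lower levels than stromal medium for 8 of the 9 genes and a higher level for Serpina3f, although Tgtp2 turned the other way when the samples were rescaled by the median of ratios (0.13) or analysed with DESeq2 (0.17). The adipocyte minus stromal log2 differences were -1.51 for Olfr56 (SE 0.27), -1.25 for Igtp (SE 0.21), -1.21 for Iigp1 (SE 0.31) and -1.12 for Irgm1 (SE 0.19). The others were -0.89 for Serpina3g (SE 0.20), -0.83 for Irgm2 (SE 0.17), -0.70 for Tgtp1 (SE 0.22), -0.44 for Tgtp2 (SE 0.19) and 0.73 for Serpina3f (SE 0.21). Every stromal sample exceeded every adipocyte sample for 7 genes, all but Tgtp2 and Serpina3f, and 56.2% of all tested genes had that order. The reverse held for 1 gene, Serpina3f, and for 33.4% of all tested genes. All 9 passed the limma threshold in this comparison, 8 lower and 1 higher, as did 91.0% of all genes in either direction. After rescaling by the median of ratios, and likewise with DESeq2, 5 of these calls were lost, those of Iigp1, Irgm2, Tgtp1, Tgtp2 and Serpina3g. Such orders were common over the whole table.

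The median difference over the 9 genes was 2.01 for adipocyte minus unconditioned, 2.72 for stromal minus unconditioned and -0.89 for adipocyte minus stromal medium. Over all genes tested the medians were -1.03, -0.17 and -0.60 in the same order. Rescaling by the median of ratios moved all genes by 0.93, 0.36 and 0.57, and left every one of the 9 genes above unconditioned medium, the smallest being Irgm2 at 1.82 in adipocyte and 2.08 in stromal medium. Under that scaling 1078 genes rose and 1047 fell in adipocyte against unconditioned medium, where 969 rose and 1818 fell with the authors' scaling. The median of ratios was computed from the listed genes alone, all called by the authors in one or both comparisons.

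**Figure D3:**
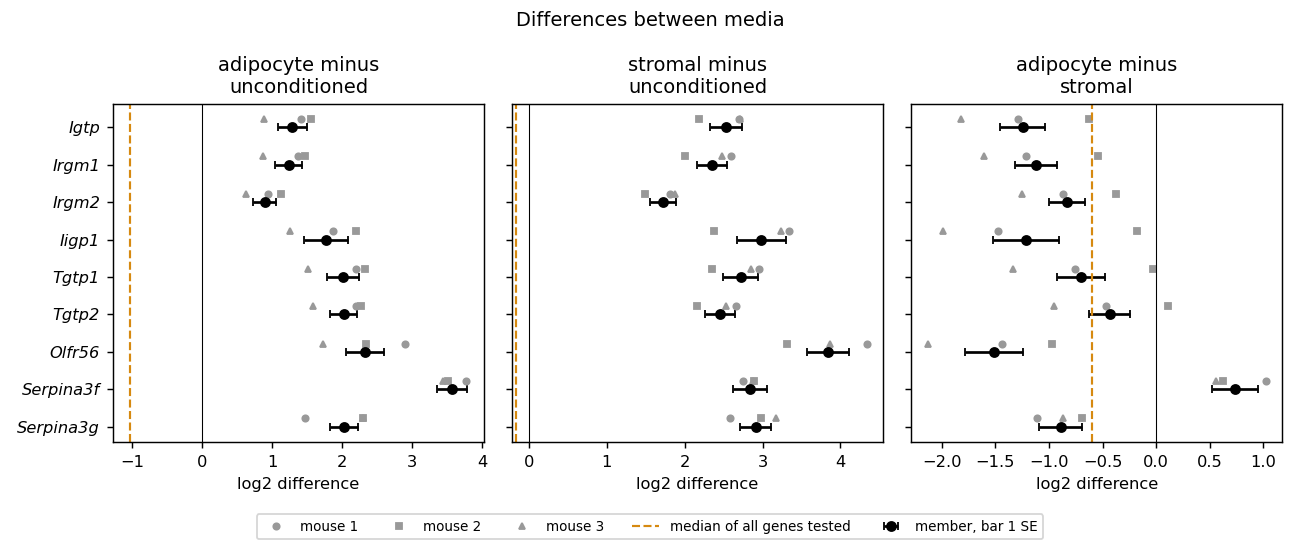
Log2 differences of the 9 genes in the 3 comparisons (horizontal axis, adipocyte minus unconditioned, stromal minus unconditioned, adipocyte minus stromal). Black points are fitted differences with bars of 1 SE, grey symbols are the differences within mouse 1, 2 and 3, and the dashed line is the median of all 2868 genes. In the adipocyte minus stromal panel Serpina3f lies alone to the right of 0, and Tgtp2 is nearest to 0 (-0.44), changing sign under 2 other scalings.

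The size of the gap between the conditioned media differed between the mice. Within mouse 1 the median adipocyte minus stromal difference over the 9 genes was -1.11, within mouse 2 it was -0.37 and within mouse 3 it was -1.33, while the medians of all genes were -0.63, -0.45 and -0.61. For the 6 GTPases and Olfr56 the range was -0.97 to 0.11 in mouse 2 and -2.13 to -0.95 in mouse 3. Tgtp1 differed by -0.76, -0.02 and -1.33 in mice 1, 2 and 3, and Tgtp2 by -0.46, 0.11 and -0.95. Serpina3f was higher in adipocyte medium in every mouse, by 1.02, 0.62 and 0.56.

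The GTPases shared an order of the mice within each medium that the serpins did not share fully. In adipocyte medium all 6 GTPases were highest in mouse 2 and lowest in mouse 3, an order that 22.2% of all tested genes had, and mouse 3 was lowest for 8 of the 9 genes, all but Serpina3g, and for 34.9% of all tested genes. In stromal medium the 6 GTPases and Olfr56 were highest in mouse 1 and lowest in mouse 2, as were 27.4% of all tested genes. Serpina3f and Serpina3g were highest in mouse 2 there. Without the adipocyte sample of mouse 3, the adipocyte minus stromal difference was -0.40 for Tgtp1 and -0.17 for Tgtp2, and that of Tgtp2 no longer passed the threshold. The call of Tgtp2 was lost in 8 of 12 settings that leave out samples.

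Compared per kb of exon, which allows genes of different length to be set side by side, the set spanned a wide range of levels. In unconditioned medium Tgtp1 and Igtp, at 7074 and 7060 normalized counts per kb, did not differ beyond the spread of the mice. Tgtp2 followed at 2967, then Irgm1 at 1332 and Irgm2 at 1251, which overlapped. Iigp1 stood at 146, Serpina3g at 69.4, Serpina3f at 37.5 and Olfr56 at 17.1, each clear of the next.

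In stromal medium the order was the same, with Tgtp1 at 47291 and Igtp at 41101 normalized counts per kb overlapping and Tgtp2 at 16408. Irgm1 (6880) and Irgm2 (4151), which overlapped in unconditioned medium, were apart there. Lower in that order, Iigp1 had 1197, Serpina3g 518, Serpina3f 271 and Olfr56 249 normalized counts per kb, the last pair overlapping. In adipocyte medium Tgtp1 (29739), Igtp (17781) and Tgtp2 (12407) formed a chain of overlapping neighbours, followed by Irgm1 (3225) and Irgm2 (2373), which overlapped. Serpina3f (456) moved above Serpina3g (283) in adipocyte medium, both neighbours of Iigp1 (530) in overlapping ranges, and Olfr56 was last at 90.7.

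**Figure D4:**
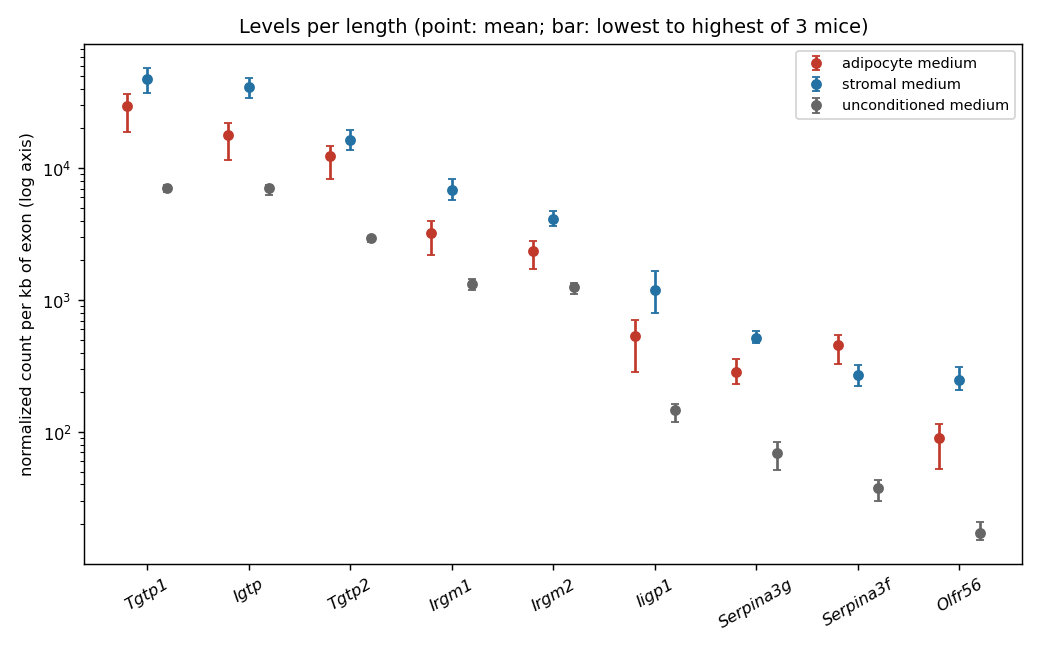
Levels of the 9 genes per kb of exon, on a log axis. Points are means in adipocyte, stromal and unconditioned medium and bars run from the lowest to the highest of 3 mice. Tgtp1 and Igtp are the most abundant in all 3 media, and Serpina3f stands above Serpina3g only in adipocyte medium.

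The 5 genes whose values followed each member most closely over the 9 samples were found among 2595 genes by Pearson r, given as a description over samples that share mice and media. For Iigp1 they were Gvin2 (r = 0.995) and Gvin1 (r = 0.992), giant interferon-induced GTPase genes, the chemokine gene Cxcl10 (r = 0.982), Hmgn5 and Cdkn1c. For Igtp and Irgm1 they included Gvin2, Irf9, which encodes a subunit of the factor that binds ISRE elements, Rtp4, an interferon-induced chaperone gene, and Gbp10, a guanylate binding protein gene whose reads may be shared with near copies. The fifth was Gbp6 for Igtp and Gimap9, a lymphocyte GTPase gene, for Irgm1. Irgm2 had Gvin2, Rtp4, Gvin1, Irf9 and Gbp10. For Olfr56 they were Irf9, Tnfrsf23, Prmt1, Gimap9 and Sumo3. The r of Irf9 with Igtp, Irgm1, Irgm2 and Olfr56 was 0.986 to 0.995.

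Tgtp1 and Tgtp2 were both tracked by the transcription factor gene Irf8 (r = 0.986 and 0.983), by Srrt, which encodes an RNA processing factor (r = 0.983 and 0.989), and by Rnf19b. Tnfrsf23 and Hmgn5 completed the 5 for Tgtp1, and Hspa2 and Ncaph those for Tgtp2. Serpina3f was followed by Stat5a (r = 0.989), Elf1 (r = 0.986), Nbn (r = 0.985), Atp6v0c (r = 0.984) and Irf1 (r = 0.981). Serpina3g was nearest to Gimap9 (r = 0.971), Slco4a1, Cmss1, Srrt and Ncaph. Between pairs of the set, r ran up to 0.999 for Igtp with Irgm1 and down to 0.747 for Igtp with Serpina3f.

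Genes of the interferon gamma pathway, from ligand to feedback inhibitors, were listed beside the set. Of 13 pathway genes listed, 8 were in the table. In adipocyte medium 6 rose, 1 fell and 1 did not pass limma at an adjusted p of 0.05, and in stromal medium 6 rose and 2 did not pass. Between the conditioned media, 3 were higher and 4 lower in adipocyte than in stromal medium, or 4 and 2 after rescaling by the median of ratios. Of all genes tested, 33.8% rose and 63.4% fell in adipocyte medium, and 21.1% rose and 36.6% fell in stromal medium. As with the members, every gene in the table had been called by the authors in one or both comparisons. The p-values given below for single listed genes are therefore not independent of that selection.

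Ifng, which encodes interferon gamma, rose in both media and most in adipocyte medium. It had 2120, 1609 and 1698 normalized counts in adipocyte medium, 321, 381 and 360 in stromal medium, and 97, 132 and 119 in unconditioned medium. The adipocyte minus stromal difference was 2.34 (SE 0.16, limma adjusted p = 8.43e-08). The conditioned media thus stood in the opposite order to that of the GTPases other than Tgtp2, whose adipocyte and stromal samples overlapped. Ifngr2, a receptor chain, averaged 11970 in adipocyte, 5172 in stromal and 5760 in unconditioned medium, a rise of 1.05 in adipocyte medium (limma adjusted p = 1.03e-06).

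Socs1, a feedback inhibitor of the pathway, averaged 2485, 8678 and 2214 in adipocyte, stromal and unconditioned medium, with differences of 0.16 in adipocyte medium (limma adjusted p = 0.167; 1.09 after rescaling and 0.28 without the adipocyte sample of mouse 3, both past the threshold) and 1.97 in stromal medium (limma adjusted p = 3.47e-07).

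The interferon regulatory factor genes rose in both. Irf1 averaged 48111, 41460 and 17092 normalized counts in adipocyte, stromal and unconditioned medium, with rises of 1.47 and 1.28. Irf8 rose by 1.00 and 1.36, and Irf9 by 0.46 and 0.85, in adipocyte and stromal medium. Socs3, another feedback gene, rose by 1.17 and 0.88. Ciita, the activator of MHC class II genes, fell by 2.61 in adipocyte medium, with a mean of 23.1 against 124 in unconditioned medium, and its stromal difference was -0.06 (limma adjusted p = 0.915).

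Genes that interferon gamma is known to induce were counted as a list, 10 of which are guanylate binding protein (Gbp) genes. Of 22 listed response genes in the table, which exclude the 9 genes of the set, 10 rose and 2 fell in adipocyte medium (median 0.61). In stromal medium 18 rose and none fell (median 1.94). The shares of all genes that rose and fell were 33.8% and 63.4% in adipocyte medium and 21.1% and 36.6% in stromal medium. Of these 22, 3 were higher and 17 lower in adipocyte than in stromal medium, where 33.8% of all genes were higher and 57.2% lower. After rescaling by the median of ratios 5 were higher and 13 lower. Of the 12 that are not Gbp genes, 3 were higher and 7 lower, or 5 and 4 after rescaling, a split made after the values were seen. The adipocyte count was sensitive to scale and to 1 sample, since 20 rose and 2 fell after rescaling by the median of ratios and 17 rose and 2 fell without the adipocyte sample of mouse 3.

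The guanylate binding proteins are another family of interferon-induced GTPases that acts on the same vacuoles. Of the 10 Gbp genes counted above, 3 (Gbp6, Gbp10 and Gbp11) rose in adipocyte medium and 10 in stromal medium. In adipocyte medium 8 rose without the adipocyte sample of mouse 3, 6 without mouse 3 in every group and 10 after rescaling. Over all genes tested, 33.8% rose in adipocyte and 21.1% in stromal medium. The median differences of the 10 Gbp genes were 0.37 and 2.63, where the 9 genes of the set, Olfr56 and the serpins included, had 2.01 and 2.72. Gbp2 averaged 9658, 65282 and 5950 normalized counts in adipocyte, stromal and unconditioned medium, with differences of 0.56 (limma adjusted p = 0.176) and 3.36 (limma adjusted p = 1.42e-05). Gbp11 rose by 1.33 and 4.84, and Gvin1, listed with them, by 0.77 and 1.33.

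Other serpins and the proteases that serpins inhibit were also listed. Of 5 other serpin genes in the table, 4 rose and 1 fell in adipocyte medium, and none rose and 1 fell in stromal medium. The shares over all genes tested were 33.8% and 63.4% in adipocyte medium and 21.1% and 36.6% in stromal medium. Serpinb9, the inhibitor of granzyme B, averaged 7060, 2465 and 2527 normalized counts in adipocyte, stromal and unconditioned medium, a rise of 1.47 in adipocyte medium. Serpinb9b, a relative of Serpinb9, and the low-count Serpina3b rose by 1.93 and 3.35 there, and Serpinb6a fell by 2.16. In stromal medium Serpinb6a fell by 0.98, and the differences of Serpinb9, Serpinb9b and Serpina3b were -0.04, 0.48 and 0.41 and did not pass the threshold.

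Of 6 granzyme, perforin and cathepsin genes, 3 rose and 2 fell in adipocyte medium, and 3 rose and 1 fell in stromal medium. Over all genes tested, 33.8% rose and 63.4% fell in adipocyte medium, and 21.1% rose and 36.6% fell in stromal medium. Gzmb (granzyme B) averaged 8683, 1548 and 624 normalized counts in adipocyte, stromal and unconditioned medium, with rises of 3.80 and 1.31. Gzmc (granzyme C) rose by 2.82 and 1.92, and Prf1, which encodes perforin, had a difference of -0.38 in adipocyte medium (limma adjusted p = 0.181; -0.69 and past the threshold without the adipocyte sample of mouse 3, and 0.66 and past it with DESeq2) and fell by 1.81 in stromal medium. Ctsl, which encodes the cathepsin L that Serpina3g inhibits, averaged 4949, 3589 and 1746 and rose in both. The cathepsin genes Ctsg and Ctsh, named after their values were seen, were the 2 that fell in adipocyte medium, by 2.44 and 2.34, and their stromal differences of 0.47 and -0.39 did not pass the threshold. Of 14 autophagy genes listed as partners of the GTPases, 2 were in the table, and both rose in adipocyte medium, Map1lc3a by 0.94 and Gabarapl1 by 1.03, and in stromal medium Map1lc3a rose by 0.56.

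Genes known mainly as targets of type I interferon were listed for comparison. Of 14 in the table, 5 rose and 8 fell in adipocyte medium and 10 rose and 3 fell in stromal medium. After rescaling by the median of ratios, 7 rose and 4 fell in adipocyte medium. Of all genes tested, 33.8% rose and 63.4% fell in adipocyte medium, and 21.1% rose and 36.6% fell in stromal medium. The adipocyte counts with the authors' scaling were near these shares, and nothing is read from them. Rtp4 rose by 0.84 and 2.00 in adipocyte and stromal medium, and Isg15 by 1.17 and 1.46. Usp18, which removes the ubiquitin-like Isg15 from proteins, rose by 0.59 and 1.64. Among those that fell in adipocyte medium, named after their values were seen, were Ifi208 (-2.35), Ifit1bl1 (-2.14), Ifit3b (-1.90) and Slfn1 (-1.54).

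**Figure D5:**
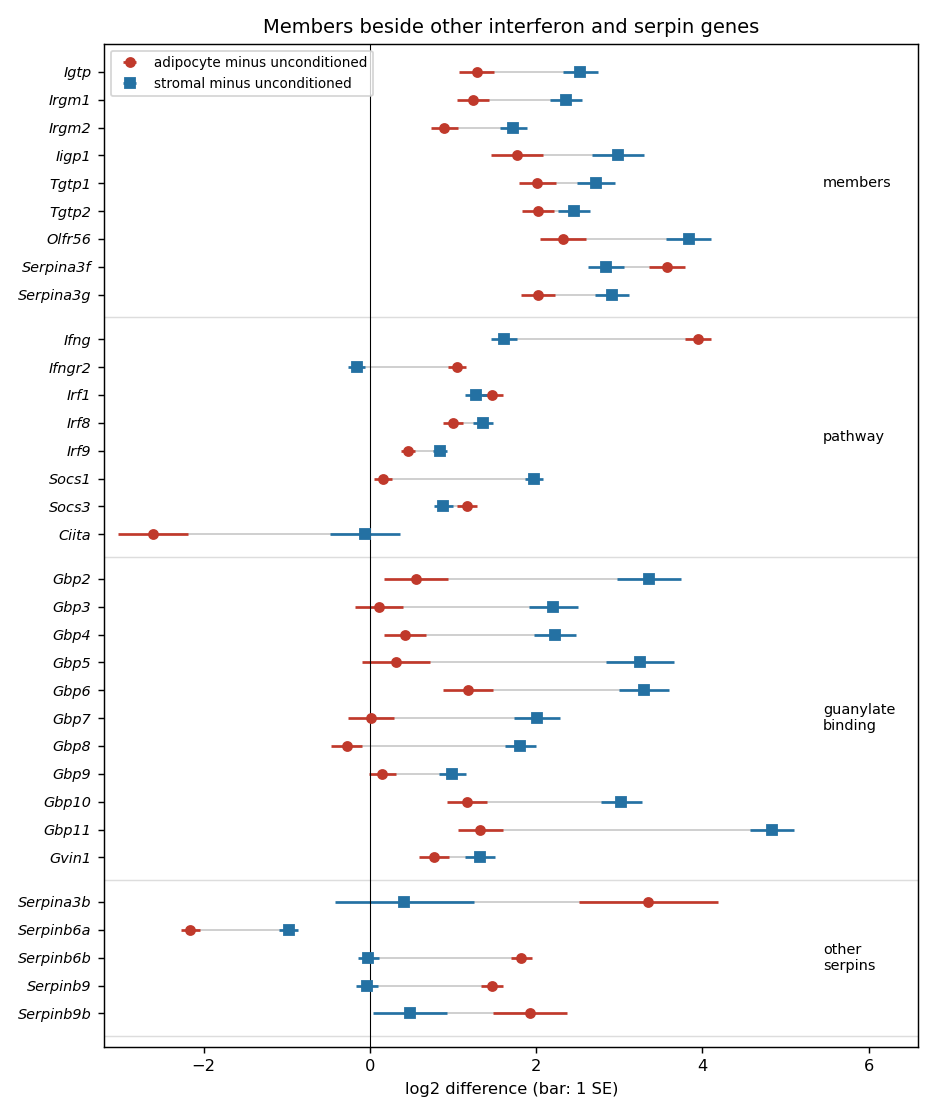
Log2 differences of the 9 genes beside the listed pathway genes, guanylate binding proteins and other serpins. Red circles are adipocyte minus unconditioned and blue squares stromal minus unconditioned medium, with bars of 1 SE, and the grey line joins the 2 values of a gene. Ifng (3.95 and 1.61) and Serpina3f (3.57 and 2.84) lie further right in adipocyte medium, while Socs1 (0.16, and 1.09 after rescaling, against 1.97) and Gbp11 (1.33 and 4.84) lie further right in stromal medium.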

How the data were processed

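RNA of the T cells was made into SMART-seq v4 and Nextera XT libraries, per the labels' protocols. Tools named in the submitters' processing notes are FastQC, Trimmomatic, featureCounts and DESeq2, with the builds GRCm39, GRCh38 and hg38. The aligner was not given in the sources used here. Per the file headers, the authors deposited normalized counts (a signal per gene, reads divided by a size factor) for 2889 genes, and comparison tables with log2 fold changes, p-values and a Wald score. The sample table gives a cluster number per gene from the authors as well: 7 of the 9 genes are in their cluster 4 (132 genes), and Tgtp2 and Serpina3f are in cluster 1 (920 genes).

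The 9 genes and the lists were chosen with earlier results of these data known, and 1 listed gene is not reported here and not counted in its lists. From the deposited values, log2(value + 1) was fitted with limma 3.58.1 (R 4.3.3) over all 9 samples, with the medium as the only term, for 2868 genes with a mean of at least 1, and p-values were two-sided and Benjamini-Hochberg adjusted over all of them. A call is an adjusted p under 0.05. The code was tested on simulated data. Listed values came out as whole reads in 100% of cases within 0.01 reads, so edgeR 4.0.16 and DESeq2 1.42.0 were run on the recovered counts as alternatives. Labels name the mouse of each sample, so the numbers pair the samples. Deviations of same-mouse samples correlated at -0.12 to 0.26 and those of different mice at -0.20 to 0.14, so the ranges overlapped. Genes named are the 9, their 5 closest by Pearson r, the listed pathway genes and up to 4 of each other list with the largest stromal difference. Promoters came from RefSeq and coordinates from GENCODE M21.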

Additional observations from a re-analysis of the deposited data

How the results depend on the processing

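No direction of the 9 genes against unconditioned medium changed under any alternative, and 3 ways of rescaling moved values, by construction of the scale. With adipocyte minus unconditioned medium, rescaling by the median of ratios gave 2.70 for Iigp1, 2.21 for Igtp, 2.16 for Irgm1, 1.82 for Irgm2, 2.94 for Tgtp1, 2.94 for Tgtp2, 3.24 for Olfr56, 4.49 for Serpina3f and 2.94 for Serpina3g. In the same gene order, edgeR with TMM gave 2.31, 1.78, 1.73, 1.37, 2.52, 2.51, 2.83, 4.05 and 2.49, and DESeq2 gave 2.78, 2.26, 2.20, 1.85, 3.00, 2.99, 3.32, 4.53 and 2.96. With stromal minus unconditioned medium, rescaling gave 2.89 for Igtp, 2.71 for Irgm1, 2.08 for Irgm2, 2.81 for Tgtp2, 3.19 for Serpina3f and 3.27 for Serpina3g. DESeq2 gave 2.89, 2.72, 2.08, 2.82, 3.22 and 3.27 for these 6 and 3.09 for Tgtp1. With adipocyte minus stromal medium, rescaling gave -0.65 for Iigp1, -0.68 for Igtp, -0.55 for Irgm1, -0.26 for Irgm2, -0.14 for Tgtp1, 0.13 for Tgtp2, -0.94 for Olfr56, 1.30 for Serpina3f and -0.32 for Serpina3g. In the same gene order, DESeq2 gave -0.60, -0.64, -0.52, -0.24, -0.10, 0.17, -0.89, 1.31 and -0.31. With edgeR and TMM the values were -0.90 for Igtp, -0.78 for Irgm1, -0.50 for Irgm2, -0.095 for Tgtp2 and -0.56 for Serpina3g. Tgtp2 thus reversed under rescaling and DESeq2, and Iigp1, Irgm2, Tgtp1, Tgtp2 and Serpina3g no longer passed the threshold under either.

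Leaving out 1 sample, or 1 mouse from every group, changed no sign. Tgtp2 adipocyte minus stromal ran from -0.71 to -0.17 over these settings and was no longer past the threshold in 8 of 12, among them each that left out an unconditioned sample, the adipocyte sample of mouse 3, or the stromal sample of mouse 1 or 3. Tgtp1 ran from -1.04 to -0.39, where -0.39, without mouse 3 in every group, was no longer past the threshold. Serpina3f was 0.59 and no longer past it without mouse 1 in every group. The count of interferon gamma response genes past the threshold in adipocyte against unconditioned medium was 12, and it was 22 after rescaling, 19 with edgeR and TMM, 22 with DESeq2 and 12 to 19 with samples left out. With the mouse as a replicate block, 2788, 1665 and 2619 genes passed the threshold in the 3 comparisons (adipocyte and stromal against unconditioned, adipocyte against stromal), where 2787, 1655 and 2609 passed without the block, and the block changed no call of the 9 genes. For stromal against unconditioned medium, 606 genes rose and 1049 fell, but 1129 and 561 after rescaling, 805 and 826 with edgeR and TMM and 1173 and 584 with DESeq2. For adipocyte against stromal medium, 968 rose and 1641 fell, but 1172 and 1091 after rescaling and 1178 and 1090 with DESeq2. The factors of the median of ratios, TMM and DESeq2 were computed from the listed genes alone, all called by the authors in one or both comparisons. With edgeR on the authors' scaling, 26 of the 27 calls of the 9 genes held. Which scaling is nearest to the RNA in the cells was not tested. Low read numbers limit Olfr56 in unconditioned medium, and the 3 samples per group limit all standard errors.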

Other observations

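In the authors' deposited table for stromal against unconditioned medium, Olfr56 had rank 1 of 598 genes by adjusted p, Serpina3g rank 4 and Serpina3f rank 6. The others ranked between 30 (Irgm2) and 132 (Iigp1). In the authors' deposited table for adipocyte against unconditioned medium, Serpina3f had rank 13 of 3181 genes, Serpina3g 368, Olfr56 477, Tgtp2 889 and Tgtp1 1270. Iigp1 had rank 2566, Igtp 2931, Irgm1 2945 and Irgm2 3147. The genes were selected on these same differences, so nothing is read from these ranks. The rise in adipocyte medium, as a percentage of the rise in stromal medium on the log2 scale, was 50.7% for Igtp, 51.9% for Irgm2 and 52.4% for Irgm1, the 3 regulators. For the effectors it was 59.3% for Iigp1, 74.1% for Tgtp1 and 82.3% for Tgtp2, and for Serpina3g and Serpina3f it was 69.4% and 126%. These percentages move with the scaling and were not tested. After rescaling by the median of ratios, Irgm2 rose by 1.82 and 2.08 in adipocyte and stromal medium. The percentage of Iigp1 then lay among those of the 3 regulators, so that split depends on the scaling.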
